A study of Xenopus tropicalis with 12 samples.

Results

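The intestine of tadpoles without thyroid hormone receptors (TRs) at stage 61 was compared with the intestine of stage 54 wild-type tadpoles, to ask how far the TR-less intestine at the climax of metamorphosis still had the expression profile of the normal larval intestine. The comparison used 6 of the 12 RNA-seq libraries of the study, chosen by their labels alone: 3 from TR double knockout (TRDKO) tadpoles at stage 61 and 3 from stage 54 wild-type tadpoles. The other 6 libraries, from stage 54 TRDKO tadpoles and stage 61 wild-type tadpoles, were used as reference points. All were made from poly-A-selected RNA of the whole intestine of Xenopus tropicalis. TRDKO tadpoles were TRα-/- TRβ-/-, bred from TRα-/- TRβ+/- parents. The study kept 2 TRDKO lines that differ in the deletion in TRβ, and its text does not say which line gave the RNA. Such parents carry no wild-type TRα, so the wild-type tadpoles came from other parents, and parentage goes with genotype in these libraries. The 2 groups differ in genotype, parentage and stage, so this comparison alone cannot assign a difference to any of them.

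Thyroid hormone (T3) acts through TRs, which sit on target genes, hold them down with corepressors when the hormone is absent and activate them when it is bound. In tadpoles before metamorphosis the hormone is scarce, and at climax it peaks. During this time the larval epithelium of the intestine, a single layer of absorptive cells, dies by apoptosis, and adult stem cells arise, proliferate and build a folded adult epithelium with thicker connective tissue and muscle.

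The counts were deposited per Ensembl gene ID without gene names, and the gene table at hand lists no Ensembl IDs. Genes are therefore described as groups defined by their level or change, and a few by ID. The TR genes and markers of larval epithelium, muscle, connective tissue or other organs were not analysed here, so neither the knockout nor the cell make-up of the tissue was checked in the libraries. In RNA of a whole organ, fewer cells of a type and less RNA per cell cannot be told apart. Total counts ranged from 21418372 to 31110136 in stage 54 wild-type libraries and from 25584779 to 36517167 in stage 61 TRDKO libraries. Within each of these groups, log2 CPM values (CPM, counts per 1e6 reads in genes, scaled between libraries by TMM) of 2 libraries had a Pearson correlation of 0.992 to 0.996 over the genes tested (genes are not replicates). Replicates differed somewhat more than repeated sampling of 1 library would, as the chi-square of a pair of libraries had a median over genes 1.2 to 1.46 times that of pure sampling. In stage 54 TRDKO tadpoles, replicate 3 stood apart, at 0.905 log2 units (root mean square) from the mean of the other 2 libraries, against 0.501 and 0.513 for replicates 1 and 2. The p-values below measure the spread between libraries of a group. The study calls its RNA samples biological replicates but does not say how many animals gave each one for sequencing. How much of the variation between animals this spread covers is therefore not known. In the edgeR test this spread was estimated over all 12 libraries, stage 54 TRDKO replicate 3 included.

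Of the 13954 genes tested, 3943 (28.3%) were higher and 3109 (22.3%) were lower in stage 61 TRDKO tadpoles than in stage 54 wild-type tadpoles, together 50.5% (edgeR's quasi-likelihood test, Benjamini-Hochberg adjusted p under 0.05 and over 2-fold different). A further 4555 genes (32.6%) were alike, meaning that the 95% interval of their log2 fold change lay wholly within a 2-fold change either way. The remaining 2347 genes (16.8%) were neither called nor shown to be alike. The calls were even across libraries. The share of higher genes over 2-fold above the wild-type mean was 97.0% in each of TRDKO replicates 1, 2 and 3. None of the genes called in either direction lay on the wrong side of the wild-type mean in any of these 3 libraries. The calls were made on these same libraries, so both figures largely follow from the choice of genes and are a description. The TRDKO and wild-type libraries overlapped in 18 of the called genes (0.255%), beside 1624 of all genes tested (11.6%). Little overlap is thus common to most genes, and the call rule favours it.

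The number of alike genes depended on how narrow the limit was. With the interval required to lie within 0.5 log2 units, 1474 genes (10.6%) were alike. At an adjusted p under 0.05 with no fold threshold, 11141 genes (79.8%) differed, and 2714 of the 4555 alike genes were among these (edgeR). Most of the alike genes thus differed measurably by less than 2-fold. Over all 4555 alike genes the median absolute log2 fold change was 0.34 (lower and upper quartile 0.17 and 0.54). The split into higher and lower genes rested on the scaling. Higher genes made up 55.9% of the calls with TMM and 76.6% with library size alone (5778 higher and 1769 lower genes), under which log2 fold changes rose by a median of 0.57. Below, changes are given with TMM.

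**Figure D1:**
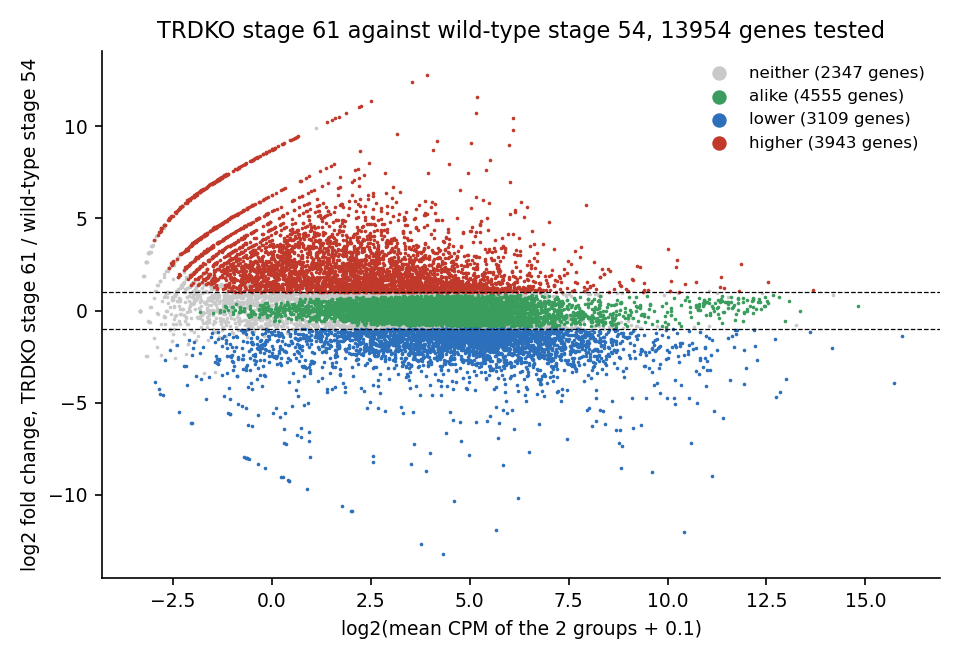
Log2 fold change of TRDKO stage 61 over wild-type stage 54 (vertical) against the log2 of the mean CPM of both groups plus 0.1 (horizontal), 1 point per gene tested, with dashed lines at a 2-fold change. The 3943 higher genes spread far upward at low levels, the 3109 lower genes reach into the highest levels, and the 4555 alike genes lie between; curved lines at the left are genes with 0 to 3 counts in a group.

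Higher genes had a larger median change than lower genes. Their median log2 fold change was 2.24 (quartiles 1.48 and 3.39), against -1.71 (quartiles -2.30 and -1.31) for the lower genes. In 807 of the higher genes, every stage 54 wild-type library had at most 3 counts, the most that a count of 0 allows for, and their fitted change rests on a small added count. With such genes set to the limit that 3 counts give, the medians were 1.91 and -1.70. The 2 lists also differed in level, with 884 higher and 185 lower genes under 1 CPM on average over all 12 libraries. All genes tested under 1 CPM had a median absolute log2 fold change of 2.15, against 0.873 from 10 to 100 CPM. The part of level in the larger rises was not tested. By fitted values, 1031 genes were more than 10-fold higher and 266 were more than 10-fold lower, and with genes at the limit these numbers were 603 and 243. Changes of 2-fold to 4-fold made up 43.1% of the higher and 63.8% of the lower genes. Among genes past the adjusted p, 262 lay just under the fold threshold on the higher side (log2 fold changes of 0.9 to 1) and 238 just over it (1 to 1.1). On the lower side 253 lay just inside the threshold (-1 to -0.9) and 263 just past it (-1.1 to -1).

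The direction of the difference went with the level of expression. Genes were grouped by their mean CPM over all 12 libraries, which gives each group the same weight. Among the 1690 genes under 1 CPM, 52.3% were higher and 10.9% lower in stage 61 TRDKO tadpoles. The filter on low counts lets such a gene in through any group where it is high enough. Of all genes tested, 1025 had at most 3 counts in every stage 54 wild-type library and 165 in every stage 61 TRDKO library. How far the filter shapes the split under 1 CPM was not tested. Among the 6483 genes from 10 to 100 CPM, 18.2% were higher and 26.3% lower. Among the 1060 genes from 100 to 1000 CPM, 9.72% were higher and 45.5% lower, with 35.0% alike, while with library size alone more genes of this class were alike (41.4%) than lower (30.1%). In the 170 genes over 1000 CPM, 5.88% were higher, 31.8% lower and 55.3% alike, but with library size alone 30.0% were higher and 24.1% lower, so the direction in this class rests on the scaling. From 100 to 1000 CPM the lower genes outnumbered the higher ones with library size alone too (30.1% against 17.4%), while from 10 to 100 CPM they did not (13.8% against 31.9%). The share of alike genes was smallest at low levels (3.43% under 1 CPM), where the 95% interval had a median half-width of 1.32 log2 units, against 0.17 over 1000 CPM.

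**Figure D2:**
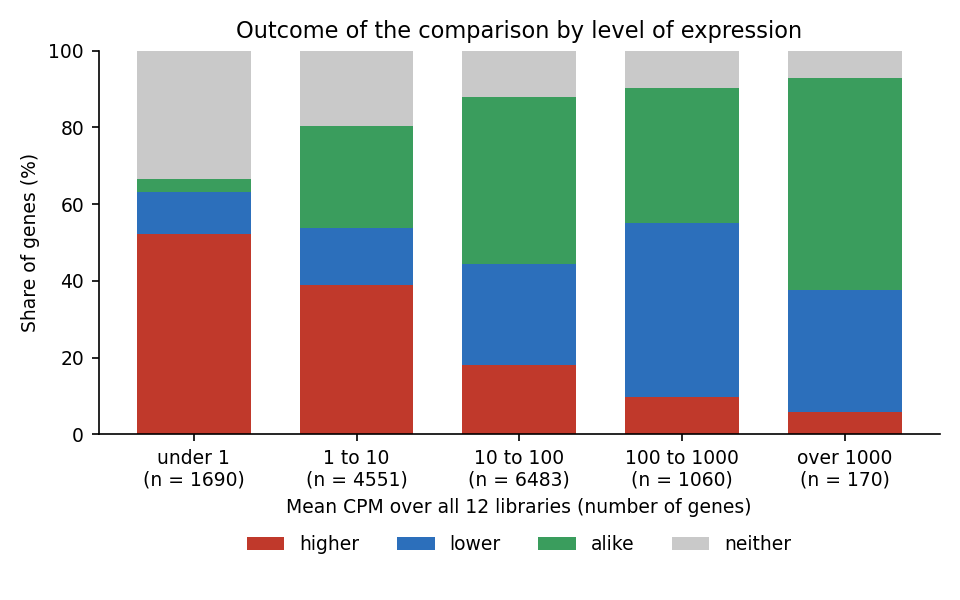
Share of genes (vertical, percent) that were higher, lower, alike or neither in TRDKO stage 61 against wild-type stage 54, by mean CPM over all 12 libraries (horizontal, number of genes in parentheses). With TMM, higher genes fall from 52.3% under 1 CPM to 5.88% over 1000 CPM; with library size alone the genes over 1000 CPM have more higher (30.0%) than lower (24.1%) members.

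The calls were then weighed by the counts they carry, as a share of each library's total. The share of a fixed set of genes does not depend on the scaling, but the sets here are those called with TMM. With library size alone the sets would be others (5778 higher and 1769 lower genes), and their shares were not computed. The 3109 lower genes took 55.6% to 55.9% of all counts in the stage 54 wild-type libraries and 18.9% to 19.2% in the stage 61 TRDKO libraries. These genes took 27.7%, 28% and 27.9% in the 3 stage 61 wild-type libraries and 37.0% to 39.8% in the stage 54 TRDKO libraries. The 3943 higher genes went from 3.33% to 3.35% of counts in stage 54 wild-type tadpoles to 15.3% to 15.5% in stage 61 TRDKO tadpoles, and held 14.8% in each stage 61 wild-type library. The 4555 alike genes took 33.6% to 33.9% in stage 54 wild-type tadpoles and 54.7% to 55.1% in stage 61 TRDKO tadpoles. Alike is thus a statement relative to the scaling, with TMM factors of 0.661 to 0.674 in stage 54 wild-type and 0.979 to 0.998 in stage 61 TRDKO libraries. These classes were defined on the same libraries, so their shares are a description with no test.

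**Figure D3:**
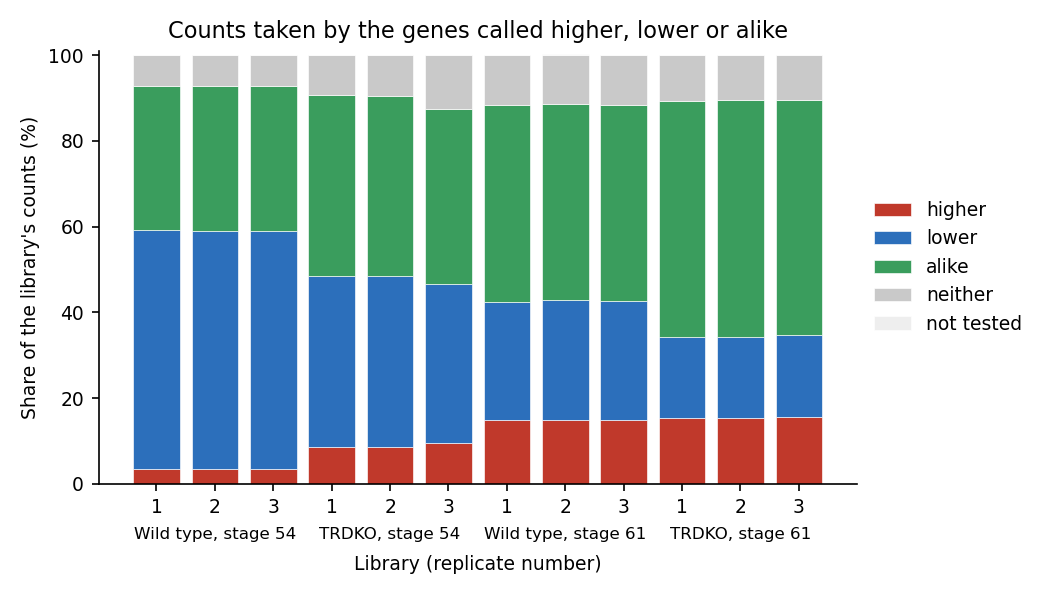
Share of each library's counts (vertical, percent) taken by classes of genes, in all 12 libraries by replicate number (horizontal). The classes are the genes called higher, lower, alike or neither with TMM in TRDKO stage 61 against wild-type stage 54. The lower genes fill 55.6% to 55.9% of the stage 54 wild-type libraries and 18.9% to 19.2% of the stage 61 TRDKO libraries; the genes not tested take too few counts to be seen.

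Part of the abundant larval transcripts was kept and part was lost. The 100 genes with the largest share of counts in stage 54 wild-type tadpoles took 47.9% ± 0.153 (SD, n = 3) of the counts there and 41.5% ± 0.16 (SD, n = 3) in stage 61 TRDKO tadpoles. In stage 61 wild-type tadpoles the same genes took 28.5% ± 0.186 and in stage 54 TRDKO tadpoles 39.1% ± 0.034 (SD, n = 3 each). The groups also differed in concentration, as the own 100 most abundant genes took 50.1% in stage 61 TRDKO and 34.3% in stage 61 wild-type tadpoles. Even the list of stage 61 wild-type tadpoles took more, 44.5%, in stage 61 TRDKO tadpoles. A higher share there was thus not particular to the stage 54 list. Since the genes of the stage 54 list were picked as the most abundant in these same libraries, a lower share in other groups can follow from the choice alone. These shares are therefore a description. Stage 61 TRDKO tadpoles had 60 of these genes among their own 100 most abundant, stage 61 wild-type tadpoles had 61, and stage 54 TRDKO tadpoles had 77.

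The 60 genes on both lists took 34.8% ± 0.171 (SD, n = 3) of the counts in stage 54 wild-type tadpoles and 38.6% ± 0.165 (SD, n = 3) in stage 61 TRDKO tadpoles, where 46 of them were alike, 8 were lower and 2 were higher by the test with TMM (edgeR). With library size alone, 22 of them were higher and 2 lower. Of all genes tested, 32.6% were alike, 22.3% lower and 28.3% higher with TMM. Of those over 1000 CPM, these shares were 55.3%, 31.8% and 5.88%. In stage 61 wild-type tadpoles these 60 genes took 24.7% ± 0.221 (SD, n = 3). Counts were less concentrated there, with 34.3% in the own 100 most abundant genes, against 50.1% in stage 61 TRDKO tadpoles. The 40 genes that left the list fell from 13.0% ± 0.0363 to 2.91% ± 0.0312 of counts (SD, n = 3 each), and 39 of them were called lower with TMM and 34 with library size alone. Of these 40 genes, 14 fell more than 10-fold and 3 more than 100-fold. They took 8.67% ± 1.03 (SD, n = 3) in stage 54 TRDKO tadpoles and 3.79% ± 0.0349 (SD, n = 3) in stage 61 wild-type tadpoles. The 40 genes that entered the list in stage 61 TRDKO tadpoles had taken 4.82% ± 0.0503 (SD, n = 3) of the counts in stage 54 wild-type tadpoles and rose to 11.5% ± 0.0619 (SD, n = 3), with 28 alike and 9 higher by the test. Both lists were set by the shares in these libraries, and being on both limits how far a gene can have moved. The calls and moves of the genes that stayed, left or entered are therefore a description.

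The single most abundant gene of the wild-type intestine at stage 54 also fell, but it was 1 of the 60 genes on both lists. It took 6.63%, 6.70% and 6.84% of the counts in the 3 stage 54 wild-type libraries and 0.661%, 0.671% and 0.659% in the 3 stage 61 TRDKO libraries. It took 2.70% to 3.22% in stage 54 TRDKO libraries and 0.917% to 0.957% in stage 61 wild-type libraries. In CPM with TMM, which differ from these shares by the scaling, its log2 fold change was -3.91 (standard error 0.087, adjusted p = 2.63e-11, edgeR). Between the genotypes at stage 61 its CPM with TMM did not differ past the threshold (log2 difference 0.13, adjusted p = 0.151, edgeR), while with library size alone it was lower in TRDKO tadpoles (log2 difference -0.50, adjusted p = 3.28e-05, edgeR).

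Genes that were silent in one group were mostly silent in the wild-type larval intestine. With at most 3 counts in every stage 54 wild-type library, 282 genes averaged 1 CPM or more in stage 61 TRDKO tadpoles, and 12 of these had at least 10 CPM. Their median level was 1.80 CPM in stage 61 TRDKO tadpoles, 1.28 CPM in stage 61 wild-type tadpoles and 0.529 CPM in stage 54 TRDKO tadpoles. In stage 61 wild-type tadpoles, 161 of the 282 genes were at or above 1 CPM and 38 had at most 3 counts in every library. These genes were picked for their level in stage 61 TRDKO tadpoles, so a higher level there follows from the choice. Of all 1025 genes with at most 3 counts in every stage 54 wild-type library, 356 reached 1 CPM in stage 61 wild-type tadpoles. The medians of these 1025 genes were 0.51 CPM in stage 61 TRDKO and 0.613 CPM in stage 61 wild-type tadpoles. In the opposite direction, 43 genes averaging 1 CPM or more in stage 54 wild-type tadpoles had at most 3 counts in every stage 61 TRDKO library, and 6 of them had been at or above 10 CPM. Stage 61 TRDKO libraries also had more genes with at least 10 counts, 13315 ± 181 against 11688 ± 215 (SD, n = 3 each; two-sided exact permutation test, p = 0.1, the smallest p that 3 libraries against 3 allow). The threshold of 10 counts was not adjusted for depth, and the part of depth in this result was not tested. Total counts were 21418372 to 31110136 in stage 54 wild-type and 25584779 to 36517167 in stage 61 TRDKO libraries. The limit of 3 counts stood at 0.146 to 0.208 CPM in stage 54 wild-type and 0.0839 to 0.118 CPM in stage 61 TRDKO libraries. The part of this difference in the number of silent genes was not tested.

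Each library was next placed relative to the stage 54 wild-type libraries by the root mean square difference in log2 CPM over the genes tested. The stage 61 TRDKO libraries lay 1.79 ± 0.0024 log2 units (SD, n = 3) from the stage 54 wild-type mean. The stage 61 wild-type libraries lay 2.04 ± 0.00261 (SD, n = 3) from it, and the stage 54 TRDKO libraries lay 1.30 ± 0.0159 (SD, n = 3) from it. A stage 54 wild-type library lay 0.353 ± 0.0152 (SD, n = 3) from the mean of the other 2. The stage 61 TRDKO libraries were thus nearer to the larval profile than wild-type libraries of the same stage (difference of the mean distances -0.252 log2 units with TMM and -0.584 with library size alone), with no overlap between the 3 libraries of each group (two-sided exact permutation test, p = 0.1, the smallest possible). They were nearer still to the stage 61 wild-type mean, at 1.37 ± 0.00669 (SD, n = 3), and to the stage 54 TRDKO mean, at 1.08 ± 0.00543 (SD, n = 3). Of the 3 other groups, the wild-type intestine at stage 54 was the one that the TRDKO intestine at stage 61 resembled least by this measure.

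On the line from the stage 54 wild-type mean, set to 0, to the stage 61 wild-type mean, set to 1, the stage 61 TRDKO libraries stood at 0.658 ± 0.0015 (SD, n = 3). The stage 54 TRDKO libraries stood at 0.383 ± 0.0292 (SD, n = 3), with replicate 3, the library of that group farthest from the other 2, at 0.417. Both groups were also far off the line. The part of the TRDKO profile at stage 61 that the line does not cover measured 1.19 ± 0.00615 log2 units (SD, n = 3), against 0.235 ± 0.01 and 0.118 ± 0.00587 (SD, n = 3 each) for the wild-type libraries, whose own means define the line. Thus the stage 61 TRDKO intestine stood apart from both wild-type stages and from the line between them by more than the spread within any of these groups.

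**Figure D4:**
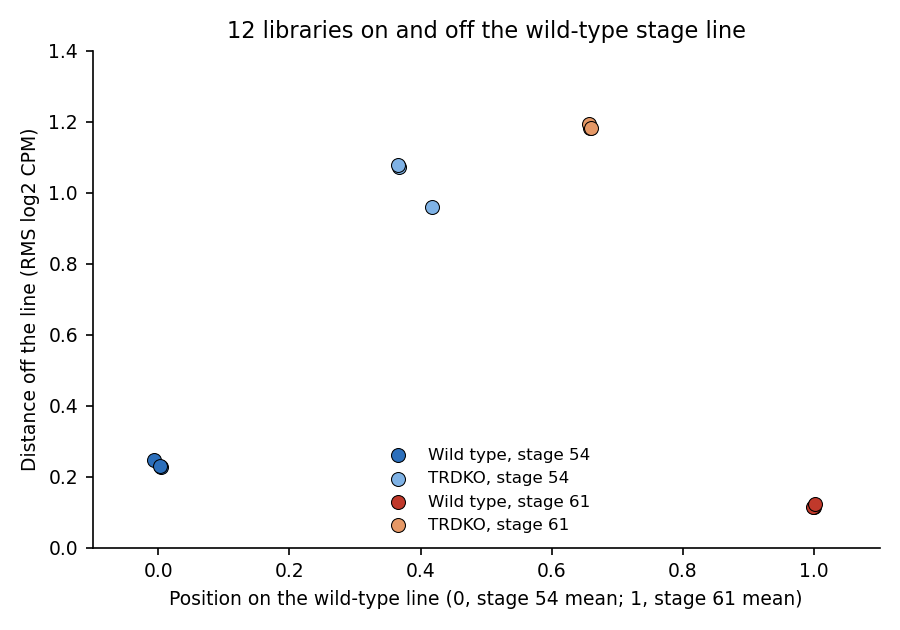
Each of the 12 libraries by its position on the line from the wild-type stage 54 mean (0) to the wild-type stage 61 mean (1) (horizontal) and its root mean square distance off that line in log2 CPM (vertical). The 3 TRDKO stage 61 libraries coincide at 0.658 on the line and 1.19 off it; the TRDKO stage 54 libraries lie at 0.383 and 1.04 on average.

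The libraries were also ordered gene by gene. In 4385 genes (31.4%) all 3 stage 61 TRDKO libraries lay between the wild-type libraries of the 2 stages without overlap. In these genes, where the choice itself places the TRDKO mean between the stages, it lay at a median of 0.592 of the log2 distance from stage 54 to stage 61 (quartiles 0.425 and 0.741). In 1301 genes (9.32%) the TRDKO libraries overlapped the wild-type range at stage 54 only, and in 1760 genes (12.6%) the range at stage 61 only. In 3050 genes (21.9%) they lay above all 6 wild-type libraries and in 3135 genes (22.5%) below all of them. These counts take in small differences. Of the genes above both stages, 1640 were called higher than at stage 54, beside 28.3% of all genes. Of those below both, 1902 were called lower than at stage 54, beside 22.3% of all genes. Lying above or below stage 54 is part of the choice of these genes. Called over 2-fold against each of the 3 other groups and beyond all 9 other libraries were 384 genes on the upper and 446 on the lower side. Among the 3 other groups, the mean of stage 61 TRDKO tadpoles was nearest to stage 54 TRDKO tadpoles in 46.7% of genes, to stage 61 wild-type tadpoles in 36.1% and to stage 54 wild-type tadpoles in 17.2%. With library size alone these shares were 53.9%, 27.2% and 18.9%.

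The levels of the called genes in the other groups are given side by side with their own change. All these values use libraries that enter the choice of the genes, so they are a description. For the 3943 higher genes, with a median log2 fold change of 2.24, the median difference from stage 54 wild-type tadpoles was 1.46 in stage 54 TRDKO tadpoles and 2.38 in stage 61 wild-type tadpoles (1.91, 1.19 and 1.99 with genes at the limit). Over all genes tested these medians were 0.15, 0.13 and 0.13. The median difference of the higher genes between the genotypes at stage 61 was -0.04, with quartiles of -0.96 and 0.82, on both sides of the wild-type climax level, while with library size alone it was -0.67, beside -0.75 for all genes tested. For the 3109 lower genes, with a median log2 fold change of -1.71, the median difference from stage 54 wild-type tadpoles was -0.94 in stage 54 TRDKO tadpoles and -1.35 in stage 61 wild-type tadpoles. In stage 61 TRDKO tadpoles they lay a median of 0.42 log2 units under the wild-type level at stage 61 (quartiles -1.07 and 0.22), beside a median of -0.11 for all genes tested. With library size alone the median of the lower genes was -1.05 (quartiles -1.70 and -0.41), beside -0.75 for all genes tested.

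With TMM, stage 61 TRDKO tadpoles differed from stage 54 wild-type tadpoles in 7052 genes. This was close to the number between the 2 wild-type stages (7207 genes, 51.6%), a comparison that shares the stage 54 wild-type libraries. The shares of alike genes were close as well, at 32.6% and 32.8%. Library size alone gave 9065 genes between the wild-type stages, against 5778 higher and 1769 lower genes in the present comparison. The closeness in number of calls thus rests on the scaling. With TMM, more than 10-fold changes were fewer in the present comparison, with 1031 rises and 266 falls. Between the wild-type stages there were 1478 and 436 by fitted values. A test of the difference between these 2 comparisons is the comparison of the genotypes at stage 61, in which 4777 genes (34.2%) were called and 6615 (47.4%) were alike (edgeR). Stage 61 TRDKO tadpoles differed from stage 54 TRDKO tadpoles in 3411 genes (24.4%), and TRDKO from wild-type tadpoles at stage 54 in 4701 genes (33.7%). Without stage 54 TRDKO replicate 3 these were 4101 and 4824 genes, and 5354 genes were alike between stage 61 TRDKO and stage 54 wild-type tadpoles. By the adjusted p alone, without a fold threshold, the wild-type stages differed in 80.4% of genes, the genotypes in 69.4% at stage 54 and 70.2% at stage 61, and the TRDKO stages in 62.2% (edgeR), beside 79.8% in the present comparison.

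Wild-type tadpoles at stage 61 against stage 54 TRDKO tadpoles is a comparison of the same 2 stages that shares no library with the present one. It called 3008 higher and 2133 lower genes, 36.8% of those tested, and 70.2% differed by the adjusted p alone (edgeR). Of the genes higher in stage 61 TRDKO tadpoles, 1804 were higher in that comparison too, which is 45.8% of the present list and 60.0% of the other, beside the 21.6% of all genes that it called higher. Of the lower genes, 831 were lower in both, 26.7% of the present list and 39.0% of the other, beside 15.3% of all genes. These shared counts rest on the scaling, as library size alone gave 3113 genes higher in both and 422 lower in both. In the opposite direction, 435 genes were higher here and lower there, 11% of the present higher list and 20.4% of the other lower list. Of all genes, 15.3% were called lower there. A further 216 were lower here and higher there, 6.95% of the present lower list and 7.18% of the other higher list. Of all genes, 21.6% were called higher there. The genes higher in both had median log2 fold changes of 2.66 here and 2.12 there, and those lower in both had -2.07 and -2.10.

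Single genes are given by ID by a rule of size. The 2 steepest rises and the 2 steepest falls were taken from called genes that reached 10 CPM on average in the higher group and had no overlap between the 6 libraries, and to them were added the 2 most abundant genes whose 95% interval lay within 0.5 log2 units. ENSXETG00000016077 had 0 counts in each stage 54 wild-type library and 1087, 769 and 852 counts in the stage 61 TRDKO libraries. Its level there was 30.4, 30.3 and 30.1 CPM, at least 173-fold above the limit that 3 counts per library give at stage 54 (adjusted p = 6.01e-10, edgeR). It had 1 to 3 counts in stage 61 wild-type libraries and 26 to 54 counts in stage 54 TRDKO libraries, so that of the 4 groups stage 61 TRDKO tadpoles alone had it above 2 CPM. ENSXETG00000021153 also had 0 counts in each stage 54 wild-type library, and 850, 592 and 629 counts (23.8, 23.3 and 22.2 CPM) in the stage 61 TRDKO libraries, at least 132-fold above the limit (adjusted p = 0.000343, edgeR). It had 3 to 10 counts in stage 61 wild-type libraries. In stage 54 TRDKO libraries its level was 7.71, 8.20 and 0.22 CPM, with replicate 3 the low one.

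The 2 largest falls ended at 0 counts. ENSXETG00000032473 had 38.1, 39.5 and 41.9 CPM in the stage 54 wild-type libraries and 0 counts in each stage 61 TRDKO library, at least 388-fold lower (adjusted p = 1.75e-06, edgeR). It had 4 to 8 counts in stage 61 wild-type libraries, and 8.80, 7.72 and 25.3 CPM in stage 54 TRDKO libraries. ENSXETG00000032113 had 26.5, 26.0 and 28.7 CPM in the stage 54 wild-type libraries and 0 counts in each stage 61 TRDKO library, at least 264-fold lower (adjusted p = 6.13e-07, edgeR). It had 1 to 6 counts in stage 61 wild-type libraries, and 6.25, 5.82 and 15.1 CPM in stage 54 TRDKO libraries. In both genes TRDKO replicate 3 at stage 54 was the highest of its group. Counts of near-identical gene copies are uncertain, and whether these IDs are such copies was not tested.

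Both genes chosen as alike were among the most abundant of the tissue. ENSXETG00000001182 had 25600, 26400 and 26400 CPM in stage 54 wild-type libraries and 31900, 31000 and 30800 CPM in stage 61 TRDKO libraries, a log2 fold change of 0.26 (95% interval 0.13 to 0.38). In stage 61 wild-type libraries it had 11600 to 11900 CPM, and the difference between the genotypes at that stage was 1.41 on the log2 scale (standard error 0.0576, adjusted p = 3.59e-09, edgeR). ENSXETG00000007220 had 10100, 10600 and 10400 CPM in stage 54 wild-type libraries and 10600, 10500 and 9990 CPM in stage 61 TRDKO libraries, which overlapped (log2 fold change -0.0021, 95% interval -0.26 to 0.26). It had 3760 to 3960 CPM in stage 61 wild-type libraries, a difference between the genotypes of 1.42 on the log2 scale (standard error 0.119, adjusted p = 1.09e-06, edgeR). With TMM, stage 54 TRDKO libraries had 17000 to 19400 CPM of the first gene and 5250 to 7680 CPM of the second, under the 6 libraries of the comparison. With library size alone, the log2 fold changes of the 2 genes against stage 54 wild-type tadpoles were 0.83 and 0.57, no longer within the limit, and those against stage 61 wild-type tadpoles were 0.77 and 0.79. On that scale the first gene had means of 17400 CPM in stage 54 wild-type, 17600 CPM in stage 54 TRDKO, 18100 CPM in stage 61 wild-type and 30900 CPM in stage 61 TRDKO tadpoles. Stage 61 TRDKO libraries thus stood above both wild-type stages under both scalings for this gene, and the size of the gap to stage 54 rests on the scaling. The second gene had 6900, 6770, 5930 and 10200 CPM in the same order of groups.

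**Figure D5:**
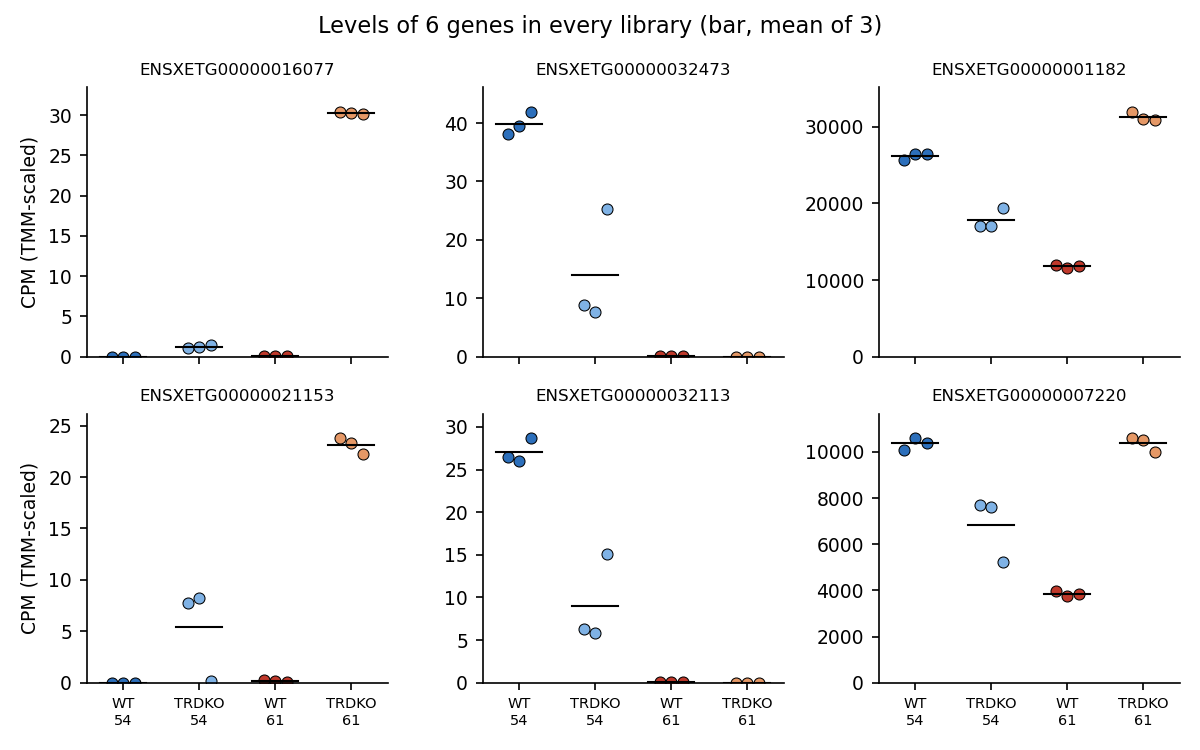
CPM scaled by TMM (vertical, linear from 0, own scale in each panel) of the 6 genes given by ID in the 3 libraries of each group (horizontal, points; bar, mean). The left column holds the 2 rises, at 30.1 to 30.4 and 22.2 to 23.8 CPM in TRDKO stage 61 and 0 counts in wild-type stage 54. The middle column holds the 2 falls, to 0 counts. The right column holds the 2 alike genes, lowest in wild-type stage 61 with TMM. With library size alone the first of them had close means in wild-type stage 54 (17400 CPM), TRDKO stage 54 (17600 CPM) and wild-type stage 61 (18100 CPM).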

How the data were processed

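RNA from the whole intestine was sequenced in 12 libraries, of which 6 form the comparison. Per the methods of the study, adapters were removed, STAR 2.6.1c aligned the reads to Ensembl's Xenopus tropicalis genome with JGI gene models, and featureCounts 1.6.3 counted reads per gene. What the authors deposited is the raw counts of 19921 Ensembl gene IDs, without normalization. The strand setting and the treatment of reads matching several genes are not given in the sources used here, so counts of overlapping genes and near-identical copies are uncertain. Whether tissue of several animals was combined for each RNA sample is not stated for sequencing.

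Columns were matched to libraries by title. The test was the quasi-likelihood test of edgeR 4.0.16, run in R 4.3.3 over the 13954 genes that passed filterByExpr. All 12 libraries entered the model, TMM-scaled, each group having its own mean, and 6 comparisons of 2 groups were tested, with p-values adjusted over all genes. Standard errors were derived from the F statistic. Log2 CPM values of libraries used a prior count of 2. Where 0 reads were counted, up to 3 are compatible with sampling, equal to 0.146 to 0.208 CPM in stage 54 wild-type libraries and 0.0839 to 0.118 CPM in stage 61 TRDKO libraries. These limits cover counting error only. On simulated data for this comparison (13659 genes, 200 of them changed 8-fold), the test recovered 198 with 6 false calls, and 0 of the 200 came out as alike. These changes went up and down in equal numbers, in genes with a mean of at least 10 counts. The run thus does not cover data with 50.5% of genes called, small changes or the choice of scaling. An 8-fold change can hardly have its interval within 2-fold, so the count of 0 does not test the alike class. Alternatives were DESeq2 1.42.0, other scalings, filters and thresholds, the 6 libraries alone, the replicate number as a block and single libraries left out. Figures were drawn with matplotlib 3.10.9.

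The comparison, its lists and its tests were chosen with earlier results of these data known. Genes to be named were chosen by the rule given with them, applied by ID. Planned lists by gene symbol (T3 response, cell cycle, apoptosis, matrix, Wnt, Notch and cell type markers) were not run, since 0 of the IDs matched the gene table, made for assembly UCB_Xtro_10.0.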

Additional observations from a re-analysis of the deposited data

Results flagged for a closer look

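For 4 of the 6 genes given by ID, the difference of stage 61 from stage 54 wild-type tadpoles was not the same in the 2 genotypes, tested as TRDKO against stage 61 wild-type tadpoles (edgeR, adjusted over all genes). ENSXETG00000016077 was 552-fold higher in TRDKO tadpoles than in stage 61 wild-type tadpoles, with a 95% interval of 268-fold to 1370-fold from the exact Poisson interval of the 7 wild-type counts, which covers counting error only (fitted log2 difference 9, adjusted p = 5.62e-10). ENSXETG00000021153 was higher by 7.04 on the log2 scale (standard error 1.07, adjusted p = 0.000305). The 2 abundant genes alike to stage 54 wild-type tadpoles, ENSXETG00000001182 and ENSXETG00000007220, were higher by 1.41 (adjusted p = 3.59e-09) and 1.42 (adjusted p = 1.09e-06) with TMM. With library size alone these 2 differences were 0.77 and 0.79 (adjusted p = 7.01e-08 and 0.000154), under 2-fold. In each of the 4 genes all 3 TRDKO libraries lay above all 3 wild-type libraries of stage 61. Of all genes tested, 34.2% were called between the genotypes at that stage. The genes had been picked for their difference from stage 54 wild-type tadpoles, or for its absence.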

How the results depend on the processing

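Groups of 3 libraries, with unknown pooling of animals, limit every test here, and depth limits the genes under 1 CPM, of which 33.3% were neither called nor shown to be alike. With no fold threshold, 5969 higher and 5172 lower genes were called, and the comparisons of wild-type stages, genotypes at stage 54, TRDKO stages, genotypes at stage 61 and the one without shared libraries gave 11215, 9689, 8682, 9789 and 9802 genes, with 2964 genes higher and 2388 lower in both comparisons without shared libraries. With glmTreat against a 2-fold change, 3145 higher and 2509 lower genes were called, and the genotypes at stage 54 and the TRDKO stages gave 2888 and 1690 genes. Library size alone gave 1769 lower genes, and 3113 genes higher and 422 lower in both comparisons without shared libraries. Within 0.5 log2 units, 1474 genes were alike. A closed-form standard error, chosen after the data were seen, gave 4557 alike genes.

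The position of the stage 61 TRDKO libraries on the wild-type line was 0.587 with library size alone, 0.660 with RLE size factors, 0.656 without a filter, 0.661 with a mean of at least 10 counts, 0.678 with a prior count of 0.5 and 0.660 without the 100 most abundant genes. Their distance off it was 1.11 without a filter, 1.18 with a mean of at least 10 counts, 1.31 with a prior count of 0.5 and 1.18 without the 100 most abundant genes. They stayed nearer to stage 61 wild-type tadpoles than to those of stage 54 under each of these settings, by 0.303 to 0.512 log2 units. With each of the 9 libraries other than stage 54 TRDKO left out in turn, the position was 0.657 to 0.660 and the distance off the line 1.18 to 1.19. In 7 fits, each without 1 of the 6 libraries compared or without stage 54 TRDKO replicate 3, the comparison gave 3894 to 4131 higher, 3058 to 3167 lower and 4215 to 5354 alike genes. The cause of these shifts was not tested. DESeq2 called 3888 higher and 3153 lower genes on 12 libraries, and 4036 and 3281 on the 6 alone with the filter on low counts also removed. EdgeR on the 6 alone, with its filter, called 3708 and 3040. With these 6 libraries setting the spread, 5375 genes were alike, against 4555 with all 12.

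Replicate numbers did not pair the libraries. Deviations from the group means of same-numbered libraries correlated at -0.00541 to 0.0174 across genes. With the replicate number as a block, 3935 higher, 3101 lower and 4493 alike genes were counted.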
